A study of Mus musculus with 3 samples.

Results

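Fluid movement across the colon epithelium was examined through 9 genes of chloride, water and bicarbonate transport, taken by symbol from the 32285 genes counted in mouse colon organoids. Cftr and Slc12a2 formed the secretory side, and Slc26a3, Slc9a3, Aqp8, Aqp4, Car1, Car2 and Car4 the absorptive side. Organoids are cultures of epithelial cells grown in a gel from crypts of the colon, without the immune and stromal cells of the tissue, and were kept here in full medium, whose growth factors favour stem and progenitor cells. There were 3 single-cell libraries, 1 of untreated organoids, 1 of organoids given IFN-γ for 24 h and 1 of organoids given it for 48 h. IFN-γ is the interferon that T cells release into injured mucosa. The comparison asks how this cytokine moves the balance between secretory and absorptive transport genes, in the organoids as a whole and in each of their cell states. Each condition is 1 library, the labels give no genotype, age or number of mice for it, and both times share the untreated library. No test between conditions was therefore possible, and every interval is a 95% interval that covers counting error only.

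Chloride secretion begins at the basolateral membrane, where the cotransporter NKCC1, the product of Slc12a2, loads the cell with chloride together with sodium and potassium. The apical channel CFTR then lets chloride and bicarbonate out, and water follows. Absorption is the reverse task and belongs mostly to the surface colonocyte, which pairs the chloride and bicarbonate exchanger DRA, encoded by Slc26a3, with the sodium and proton exchanger NHE3, encoded by Slc9a3. Carbonic anhydrases supply both exchangers with bicarbonate and protons. Car1 and Car2 encode cytosolic forms and Car4 a form anchored to the cell surface, whereas Aqp8 and Aqp4 encode water channels.

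All 9 genes are protein-coding in the GENCODE annotation of GRCm38, the assembly that mm10 names. Cftr lies at chr6:18170687-18322768 on the plus strand. The exchangers are Slc26a3 (chr12:31390871-31473917, plus strand) and Slc9a3 (chr13:74121457-74169442, plus strand). The water channel gene Aqp8 lies at chr7:123462291-123468004 on the plus strand. Car1 (chr3:14766216-14808368, minus strand) and Car2 (chr3:14886273-14900770, plus strand) lie on the same chromosome and are transcribed in opposite directions, and Car4 lies elsewhere (chr11:84957786-84966044, plus strand).

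Promoter sequences from RefSeq (GRCm38.p6) were matched for 5 of the 9 genes, and the 250 bases before the transcript start are shown for Cftr, Slc26a3 and Aqp8, 1 gene each for the anion channel, the exchangers and the water channels, all lower after IFN-γ. They lie on the plus strand at chr6:18170437-18170686, chr12:31437969-31438218 and chr7:123462044-123462293. The RefSeq start of Slc26a3 lies inside the longer GENCODE gene. Capitals mark the only match to the motifs searched.
Cftr: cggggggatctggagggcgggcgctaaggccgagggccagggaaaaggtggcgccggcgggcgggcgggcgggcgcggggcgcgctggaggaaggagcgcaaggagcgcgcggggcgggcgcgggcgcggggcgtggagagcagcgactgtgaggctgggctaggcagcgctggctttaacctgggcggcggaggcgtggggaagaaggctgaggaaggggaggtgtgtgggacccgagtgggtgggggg
Slc26a3: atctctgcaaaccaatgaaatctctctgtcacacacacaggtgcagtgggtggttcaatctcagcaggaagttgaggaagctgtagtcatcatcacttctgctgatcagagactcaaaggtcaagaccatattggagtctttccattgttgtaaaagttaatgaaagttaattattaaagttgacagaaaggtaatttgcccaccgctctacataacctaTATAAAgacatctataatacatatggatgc
Aqp8: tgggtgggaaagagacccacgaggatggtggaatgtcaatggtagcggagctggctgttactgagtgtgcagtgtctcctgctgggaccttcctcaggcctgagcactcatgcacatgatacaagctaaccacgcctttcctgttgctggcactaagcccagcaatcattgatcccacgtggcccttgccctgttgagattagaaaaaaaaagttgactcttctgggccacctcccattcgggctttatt
The base composition of these windows differed widely. G and C made up 76.4% of the Cftr window, 52.4% of the Aqp8 window and 38.8% of the Slc26a3 window, beside a median of 52.4% over the 32851 promoters in the table. CG dinucleotides numbered 30, 5 and 1. The remaining windows, of Slc9a3 and Car4, held 67.6% and 56.4% G and C. Both strands of the 5 windows were searched for the interferon-activated element TTCNNNGAA, the interferon-stimulated element GAAANNGAAA, the Cdx core TTTATG, the Hnf4 element CAAAGTCCA and the TATA box TATAAA, where N is any base. These occur in 7.02%, 2.98%, 10.8%, 0.384% and 12.4% of all promoter windows of that length. The single match was a TATA box in the Slc26a3 window, from 30 to 25 bases before the start, so no matches overlapped. The absence of the other letters refers to these windows only.

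A UMI, or unique molecular identifier, counts 1 captured transcript molecule. Cells with 5000 or more UMIs, 400 or more genes and no more than 15% mitochondrial UMIs, the limits of the study, numbered 1058 in the untreated library, 917 in the 24 h library and 2934 in the 48 h library. The cells of a library held 47243500 to 71077817 UMIs in all, and the median per cell ranged from 10772 at 48 h to 68784 at 24 h. Pairs of libraries shared 1 to 4 cell barcodes. Epcam, the epithelial marker, was at 1184 to 1463 CPM, the UMIs of a gene scaled to a common total, and Ptprc, the leukocyte marker, had no UMI in any library, while the immune list summed to at most 0.181 CPM and the stromal list to at most 1.27 CPM. Irf1, which IFN-γ is known to induce, had 23.45 CPM without it, 331.2 CPM in the 24 h library and 309.8 CPM in the 48 h library. In such summed data fewer cells with a transcript and fewer transcripts per cell give the same value, so shares of cells are reported beside them.

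All 9 genes were lower after IFN-γ at both times. At 24 h all 9 were lower by 2-fold or more, with a median log2 ratio of -3.08, where 26.0% of the 17412 genes counted were that much lower and the median over all genes was -0.46. At 48 h 8 of 9 were lower by 2-fold or more, with a median log2 ratio of -2.52, where 16.6% of 17376 genes were that much lower and the median over all genes was -0.18. Slc12a2 was the exception. Because these libraries differ in composition, TMM scaling would raise each 24 h log2 ratio by 0.45 and each 48 h log2 ratio by 0.19. Relative to the median of all genes, 6 of 9 genes at 24 h and 8 of 9 at 48 h remained lower by 2-fold or more, and those that did not at 24 h were Slc12a2, Aqp4 and Car2. With TMM factors, 16.7% of all genes at 24 h and 13.4% at 48 h were that much lower.

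**Figure D1:**
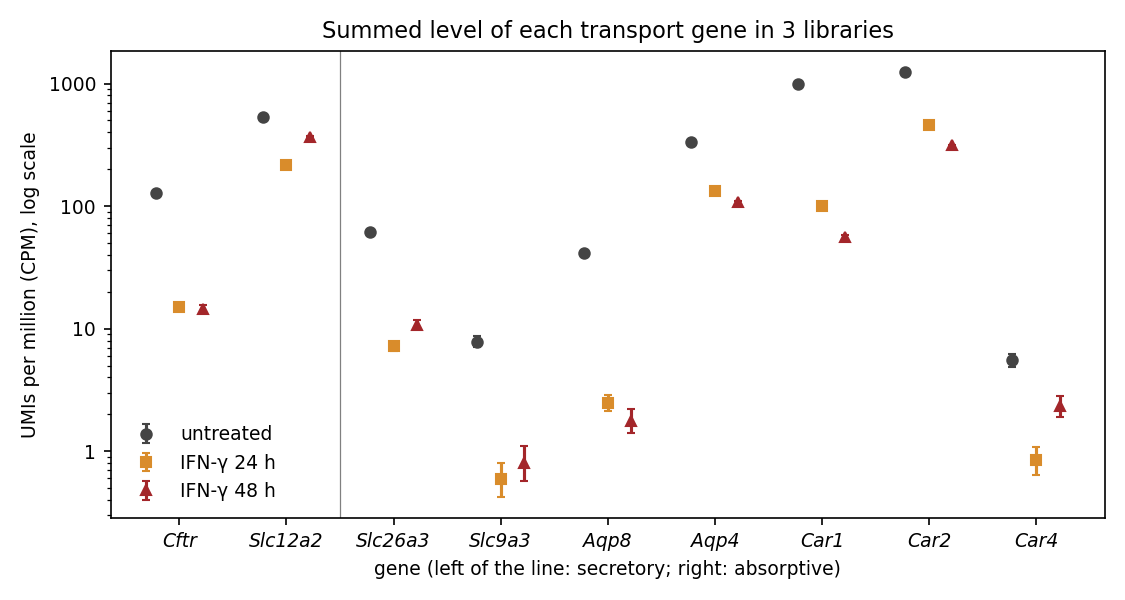
Summed level of each gene in the 3 libraries, in CPM on a log axis. Circles are untreated cells, squares 24 h and triangles 48 h of IFN-γ, and bars are exact 95% Poisson intervals. Untreated levels spanned 5.502 CPM for Car4 to 1234 CPM for Car2, and each gene was highest in the untreated library.

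Cftr, the apical anion channel, had 127.7 CPM in the untreated library, 15.1 CPM in the 24 h library and 14.44 CPM in the 48 h library. The level was 8.46-fold lower at 24 h and 8.85-fold lower at 48 h (log2 ratios -3.08, 95% CI -3.17 to -2.99, and -3.14, 95% CI -3.26 to -3.03). In CPM the treated libraries differed little from each other, by -0.06 on the log2 scale from 24 h to 48 h (95% CI -0.21 to 0.08). The median over all genes was 0.26, so relative to it Cftr was lower at 48 h than at 24 h. After each cell was thinned to 5000 UMIs to equal the depth, a Cftr UMI was found in 36.1% of untreated cells (95% CI 33.2 to 39.1%), in 7.20% at 24 h (95% CI 5.61 to 9.07%) and in 6.65% at 48 h (95% CI 5.77 to 7.61%). Without thinning the shares were 63.5%, 32.1% and 14.0%.

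Slc12a2 (chr18:57878678-57946821, plus strand), the basolateral loader of chloride, was at 537.4 CPM in untreated cells, 214.6 CPM at 24 h and 368.9 CPM at 48 h. It was 2.50-fold lower at 24 h and 1.46-fold lower at 48 h, and the later library lay above the earlier one by 0.78 on the log2 scale (95% CI 0.75 to 0.81), beyond the median of 0.26 over all genes. The share of thinned cells with a UMI went from 82.9% to 64.2% and 81.0%. The pair of secretory genes thus came apart, with 4.209 Slc12a2 UMIs for each Cftr UMI before IFN-γ, 14.22 after 24 h and 25.55 after 48 h.

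The exchangers of the absorptive membrane were among the genes with low levels and large differences. Slc26a3 was at 61.97 CPM in untreated cells, 7.161 CPM at 24 h and 10.8 CPM at 48 h, which is 8.65-fold and 5.74-fold lower (log2 ratios -3.11, 95% CI -3.25 to -2.98, and -2.52, 95% CI -2.66 to -2.39). Slc9a3 was at 7.851, 0.5909 and 0.8043 CPM, or 13.3-fold and 9.76-fold lower, from 391, 42 and 38 UMIs. Slc26a3 therefore outnumbered its partner 7.89 to 1 in untreated cells, 12.1 to 1 at 24 h and 13.4 to 1 at 48 h, and the log2 change of this quotient was 0.62 at 24 h (95% CI 0.14 to 1.10) and 0.77 at 48 h (95% CI 0.27 to 1.26). At equal depth this change was -0.051 at 24 h and 1.19 at 48 h, with Slc9a3 at a log2 ratio of -2.89 at 24 h in place of -3.73, so its direction at 24 h was not kept.

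Cftr and Slc26a3, which stand for opposite directions of chloride transport, were lower by nearly the same factor at 24 h in summed UMIs. There were 2.06 Cftr UMIs for each Slc26a3 UMI in untreated cells and 2.11 at 24 h, a log2 change of 0.03 (95% CI -0.13 to 0.20). With cells thinned to equal depth, the 24 h log2 ratios were -3.20 for Cftr and -2.94 for Slc26a3. As a mean over cells they were -3.086 and -2.855, so in both settings Cftr was lower by more. At 48 h the quotient was 1.34, a log2 change of -0.62 (95% CI -0.80 to -0.45), because Slc26a3 was higher at 48 h than at 24 h by 0.59 on the log2 scale (95% CI 0.41 to 0.77) and Cftr was not.

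Of the 2 water channels, Aqp8 was lower by far more than Aqp4. It was at 41.46 CPM in untreated cells, 2.49 CPM at 24 h and 1.778 CPM at 48 h, which is 16.7-fold and 23.3-fold lower (log2 ratios -4.06, 95% CI -4.29 to -3.83, and -4.54, 95% CI -4.88 to -4.23). Aqp4 (chr18:15389496-15410982, minus strand) was at 335.1, 132.5 and 107.9 CPM, or 2.53-fold and 3.11-fold lower. With cells thinned to equal depth the 24 h log2 ratio of Aqp8 was -3.13, close to the -3.20 of Cftr, and the 48 h ratio was -4.71. Aqp4 outnumbered Aqp8 8.08 to 1 in untreated cells and 60.7 to 1 at 48 h. A UMI is counted once for each molecule at its 3' end, so levels of different genes are set side by side without a correction for length, although capture may differ between genes.

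The carbonic anhydrases separated in the same manner. Car1 was at 985.8 CPM in untreated cells, 100.1 CPM at 24 h and 56.45 CPM at 48 h, 9.85-fold and 17.5-fold lower. Car2 was at 1234, 462.3 and 312.6 CPM, 2.67-fold and 3.95-fold lower. The 2 cytosolic enzymes were thus near parity in untreated cells, with 1.25 Car2 UMIs for each Car1 UMI, and far apart after IFN-γ, with 4.62 at 24 h and 5.54 at 48 h. Car4, the membrane-bound enzyme, was the lowest of the 9 genes in untreated cells, at 5.502 CPM, and was at 0.8441 CPM at 24 h and 2.328 CPM at 48 h. It rested on 274, 60 and 110 UMIs, and was higher at 48 h than at 24 h by 1.46 on the log2 scale (95% CI 0.997 to 1.94), a gap of 0.644 when cells were thinned and 0.546 as a mean over cells. From 24 h to 48 h, then, Slc12a2, Slc26a3 and Car4 were higher and Aqp8, Aqp4, Car1 and Car2 lower. Their intervals did not include 0, whereas those of Cftr and Slc9a3 did. These intervals take UMIs as independent, although few cells carried Car4 or Aqp8. Car4 had a UMI in 0.872% of 24 h cells and 0.682% of 48 h cells, and Aqp8 in 1.2% and 0.511%. After thinning, the intervals of the Car4 shares overlapped (0.0675 to 0.953% and 0.261 to 0.799%).

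**Figure D2:**
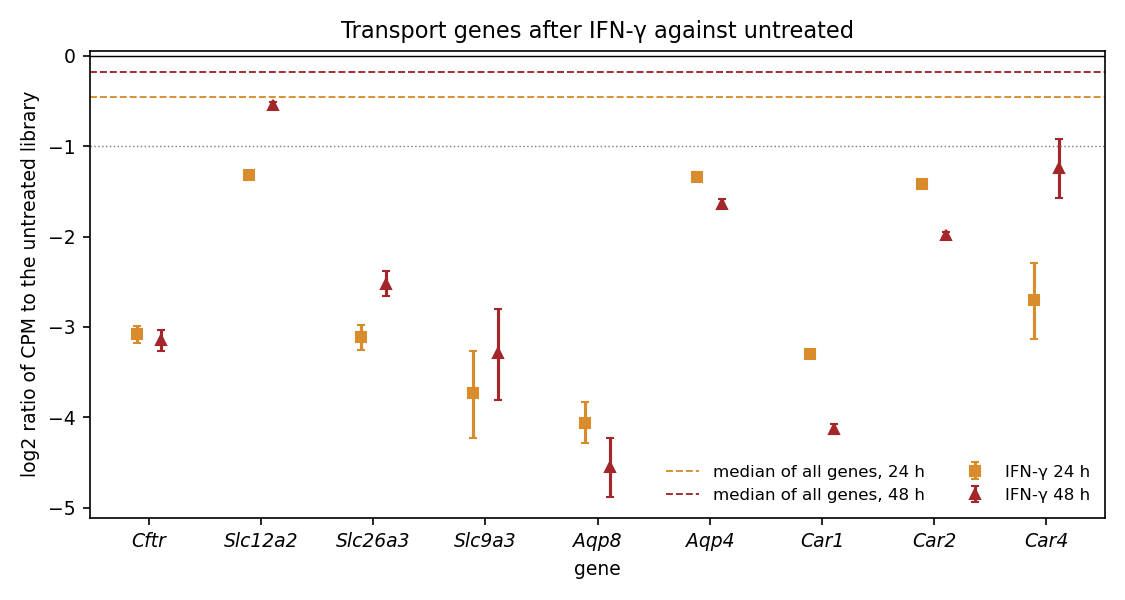
Log2 ratio of the summed level of each gene to the untreated library, at 24 h (squares) and 48 h (triangles), with exact 95% intervals. Dashed lines are the medians over all genes (-0.46 and -0.18) and the dotted line is 2-fold lower. Every gene lay below both medians, from Slc12a2 at 48 h (-0.54) to Aqp8 at 48 h (-4.54).

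Free RNA was gauged from the barcodes under 2000 UMIs, called the background here. The lowest of these had 1390 UMIs in the untreated, 851 in the 24 h and 1624 in the 48 h library. They were not shown to hold free RNA only, and the share of free RNA in a cell was not measured. In the untreated library these barcodes had Car2 at 1468 CPM and Car1 at 827.1 CPM, beside 1234 and 985.8 CPM in the cells, and Aqp4 at 261.0 CPM against 335.1 CPM. The background was lower after IFN-γ as well. At 24 h it lay above the cells for Car2 (546.6 against 462.3 CPM), Car1 (124.2 against 100.1 CPM), Aqp8 (3.137 against 2.49 CPM) and Car4 (1.639 against 0.8441 CPM), and at 48 h for Car2 (394.7 against 312.6 CPM). At those times, and for Car2 in the untreated library too, the level in cells was not above background, and how much of their fold is free RNA was not tested. Cftr was above background in all 3 libraries, at 127.7, 15.1 and 14.44 CPM against 29.43, 3.324 and 2.82 CPM, as were Slc12a2, Slc26a3, Slc9a3 and Aqp4. With this background subtracted at an assumed 10% of each library, 9 of 9 genes at 24 h and 8 of 9 at 48 h were lower by 2-fold or more. The share over all genes was not counted after subtraction. The 24 h log2 ratio of Car2 went from -1.416 to -1.415 and that of Car4 from -2.704 to -3.005. Because the background was lower after IFN-γ too, this subtraction does not tell free RNA and expression apart.

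Summed over genes, the absorptive side exceeded the secretory side in every library, but by a narrowing margin. The secretory sum was 665.1 CPM in untreated cells, 229.7 CPM at 24 h and 383.3 CPM at 48 h, and the absorptive sum was 2672, 706 and 492.7 CPM. There were 4.017 absorptive UMIs for each secretory UMI before IFN-γ, 3.073 after 24 h and 1.285 after 48 h. The log2 change of the secretory to absorptive quotient was 0.39 at 24 h (95% CI 0.36 to 0.42) and 1.64 at 48 h (95% CI 1.61 to 1.68), a measure that no scaling between libraries alters. The sums are carried by few genes. Slc12a2 supplied 80.8% of the secretory UMIs in untreated cells and 96.2% at 48 h, and Car1 and Car2 supplied 83.1% and 74.9% of the absorptive UMIs. Without Slc12a2, which leaves Cftr against the absorptive sum, the change turned to -1.16 at 24 h and -0.71 at 48 h, and without Car1 it was -0.06 at 24 h and 1.16 at 48 h. The sign of the change thus depended on Slc12a2 at both times and on Car1 at 24 h, and Cftr taken alone was lower by more than the absorptive sum.

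**Figure D3:**
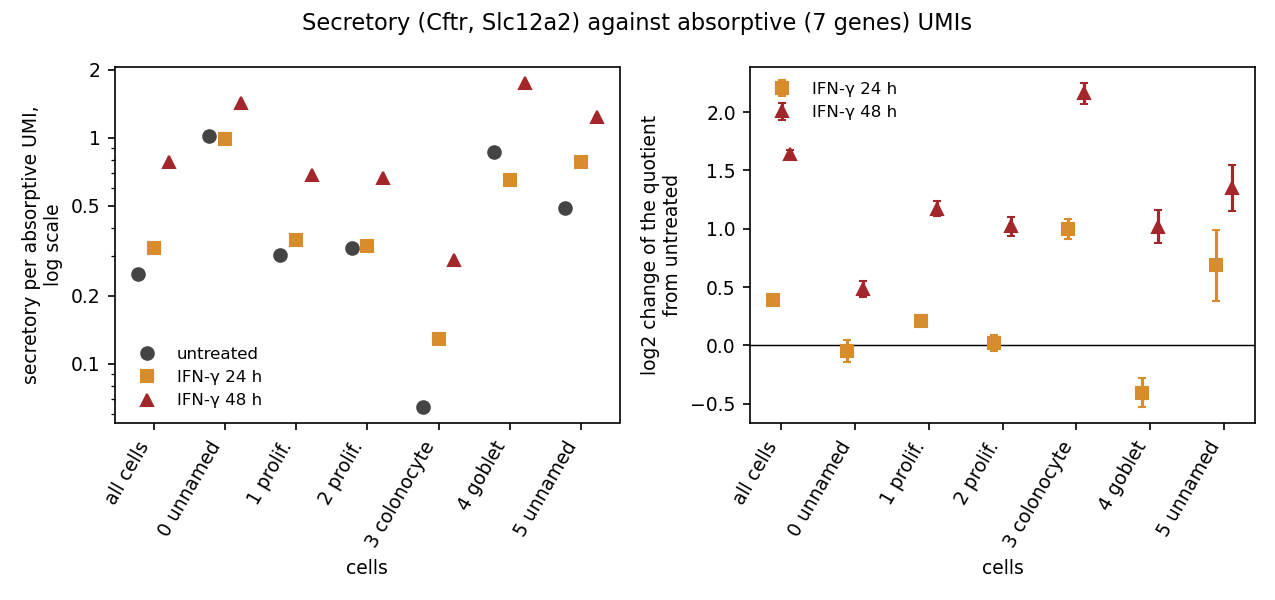
Secretory UMIs (Cftr and Slc12a2) for each absorptive UMI (the other 7 genes) on a log axis, left, and the log2 change of that quotient from untreated with 95% intervals, right, over all cells and in the 6 clusters with at least 20 cells in every library. At 48 h the change was above 0 in all 6 clusters, from 0.48 in cluster 0 to 2.16 in the colonocyte-like cluster, whereas at 24 h it ran from -0.41 in the goblet-like cluster to 0.998 in the colonocyte-like cluster. The quotients lean on Slc12a2, which supplied 1637 of the 1730 secretory UMIs of colonocyte-like cells at 48 h.

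To see where in the organoid these genes were used, the cells were clustered with all transport genes left out of the variable genes. Of 8 clusters, 6 had at least 20 cells in each library. Cluster 3, led by Krt20, a keratin of mature colonocytes, was colonocyte-like with 12 of 14 colonocyte markers above the other cells, and held 182, 116 and 287 cells. Car1 and Slc26a3 were among its leading genes although they were not used to form it. Cluster 4, led by Spink4 and Muc2, was goblet-like (133, 79 and 224 cells). Clusters 1 and 2, led by Nusap1 and Ube2c and by Ung and Ccne2, were proliferating-like. Cluster 0, led by Lrrc4, had 8 of 11 stem markers above the other cells but none among its leading genes. It had a low depth and stayed unnamed. Cluster 5, led by Slc2a13 and Pparg, stayed unnamed too. The nuclear transcripts Neat1 and Malat1 were among its leading genes and summed to 37623 CPM in its untreated cells. Cluster 6, led by Chgb and Chga, was enteroendocrine-like with 30, 12 and 18 cells, too few for ratios, and cluster 7 was unnamed and smaller still.

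In untreated cells Slc26a3, Slc9a3, Aqp8 and Car4 were concentrated in the colonocyte-like cluster, which held 17.2% of the cells and 22% of the UMIs but 85.1% of the Slc26a3, 85.2% of the Slc9a3, 98.3% of the Aqp8 and 99.6% of the Car4 UMIs. Car1 followed at 81.0%. Slc26a3 was at 239.9 CPM there and at 4.968 CPM in goblet-like cells, and thinned cells with a UMI made up 40.7% of the former and 0.752% of the latter, at median depths of 51800 and 41725 UMIs before thinning. Aqp8 was at 185.4 CPM against 0.4516 CPM, and Car4 at 24.93 CPM against 0.1505 CPM. Cluster 5 shared only the exchangers. It had Slc26a3 at 167.2 CPM (95% CI 138.0 to 200.9) and Slc9a3 at 39.61 CPM (95% CI 26.1 to 57.6), but Aqp8 at 8.802 CPM from 6 UMIs and no Car4 UMI, for which 3 counts would be 4.4 CPM.

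Set against the untreated background, Cftr was above it in all 6 clusters, Slc12a2 in all but the colonocyte-like cluster and Aqp4 in all but the goblet-like cluster. Slc26a3 and Slc9a3 were above it in clusters 1, 3 and 5, and Aqp8, Car1, Car2 and Car4 in the colonocyte-like cluster alone. In cluster 1, however, the intervals of Slc26a3 (12.9 to 16.9 CPM) and Slc9a3 (0.971 to 2.30 CPM) included the background of 13.89 and 1.169 CPM. At or below background, this comparison of levels does not tell expression and free RNA apart, and such a level does not mean that a gene is silent. Car2 in cluster 2 was at 1264 CPM against a background of 1468 CPM, yet with a UMI in 98.5% of thinned cells. Cftr was highest in cluster 5 (394.6 CPM) and cluster 0 (267.4 CPM). Both were shallow, with medians of 11249 and 15432 UMIs, and had medians of 10.4% and 10.3% mitochondrial UMIs, beside 4.07% in colonocyte-like cells. Whether depth or damage shaped this order was not tested. Cftr was intermediate in colonocyte-like (122.5 CPM) and proliferating-like cells (106.1 and 94.45 CPM), and lowest in goblet-like cells (64.58 CPM). The intervals of the colonocyte-like cells (116.1 to 129.3 CPM) and of cluster 1 (101 to 111.5 CPM) did not overlap. Those of clusters 1 and 2 met at 101 CPM. These intervals take UMIs as independent, although 19 of the 182 colonocyte-like cells held 58.3% of the cluster's Cftr UMIs after thinning. Thinned cells with a Cftr UMI made up 30.22% of colonocyte-like cells (interval 23.65 to 37.45%) and 29.45% of cluster 1 (22.58 to 37.08%). No order of Cftr between these clusters is therefore drawn. Slc12a2 ran from 1017 CPM in cluster 0 to 294.8 CPM in colonocyte-like cells, where Slc26a3 was highest. Car2 was at 1950 CPM in colonocyte-like cells and 582.4 to 1264 CPM in the other clusters, and Aqp4 ran from 137.3 CPM in goblet-like to 437.9 CPM in colonocyte-like cells. Free RNA included, the secretory to absorptive quotient of untreated cells was 1.018 in cluster 0, 0.8614 in goblet-like cells, 0.3039 and 0.3265 in proliferating-like cells and 0.06418 in colonocyte-like cells.

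**Figure D4:**
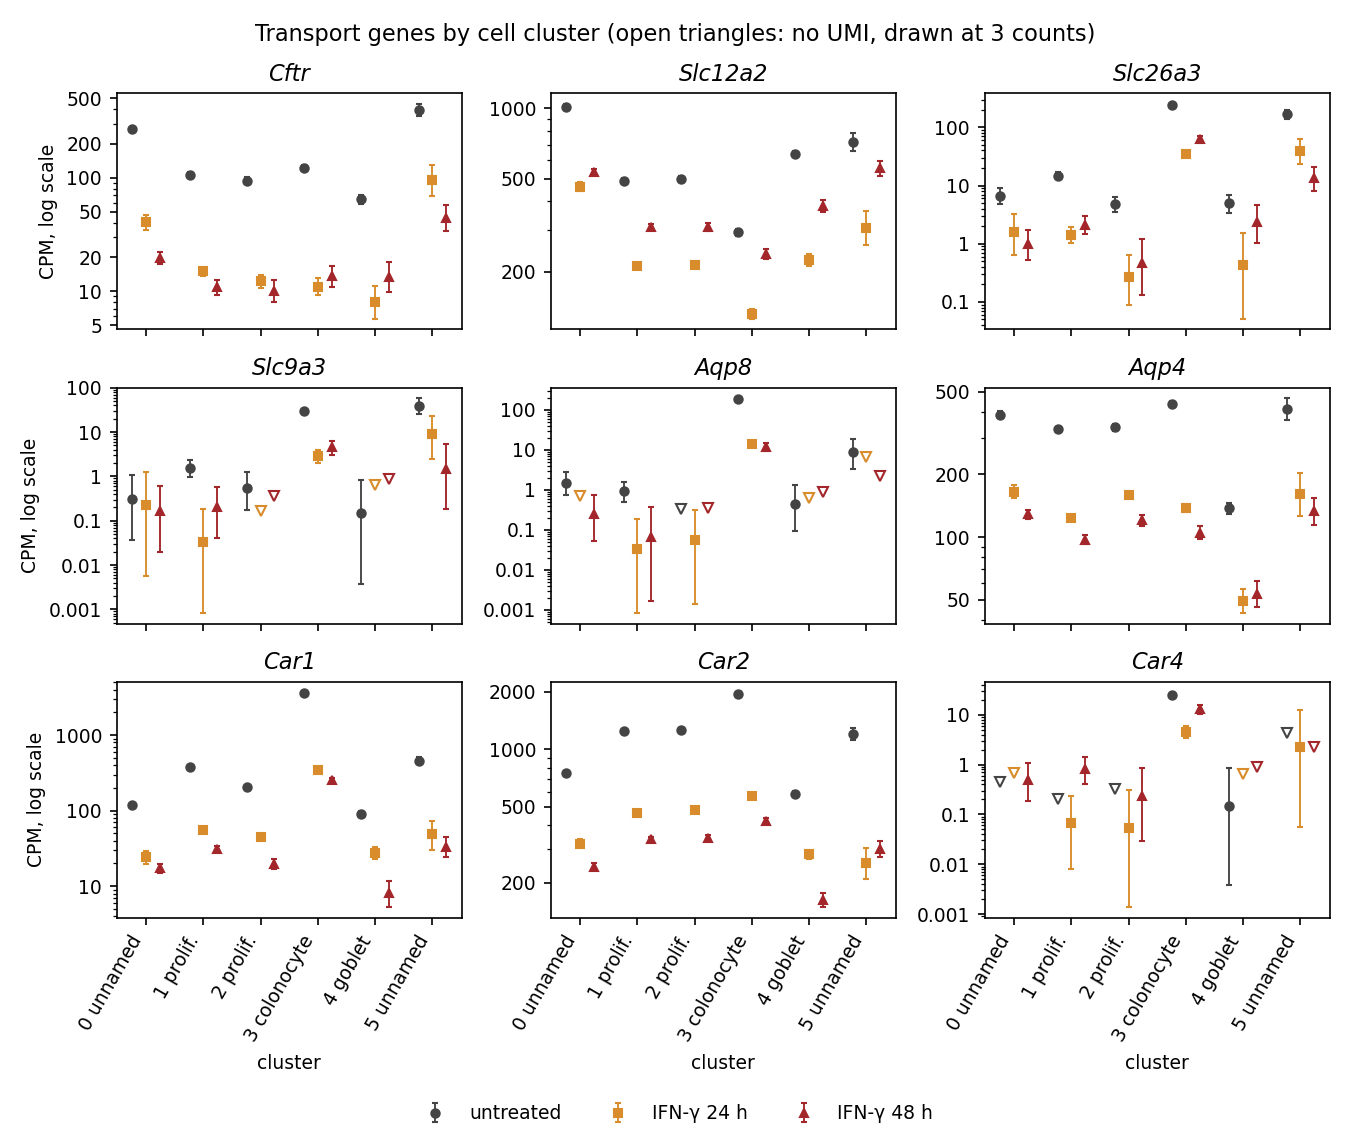
Level of each gene in the 6 clusters with at least 20 cells in every library, in CPM of the cluster's UMIs on log axes, with exact 95% Poisson intervals. Circles are untreated, squares 24 h and filled triangles 48 h, and open triangles stand for no UMI and are drawn at 3 counts. Cftr, Slc12a2, Aqp4, Car1 and Car2 had lower levels after IFN-γ in all 6 clusters, free RNA included, and Slc26a3, Slc9a3, Aqp8 and Car4 were highest or near their highest in cluster 3.

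After IFN-γ the differences were followed in the clusters whose untreated level was above background. This choice used the untreated level itself and so favours lower values after IFN-γ. The counts of clusters below describe the data and are no test. For Cftr all 6 clusters passed, so none was left out. Cftr was lower in all 6 clusters at both times, by -2.05 to -3.49 on the log2 scale at 24 h and by -2.27 to -3.77 at 48 h. Slc12a2 was lower in all 5 such clusters, by -1.14 to -1.50 at 24 h and by -0.37 to -0.92 at 48 h. Aqp4 was lower by 2-fold or more in all 5, and Slc26a3 and Slc9a3 in all 3, at both times. For Slc9a3 this rested on 1 UMI at 24 h and 3 at 48 h in cluster 1, and on 4 and 2 in cluster 5. In the other clusters free RNA and expression were not told apart. Where the pooled level was recomputed with the untreated share of UMIs for each cluster, the 48 h log2 ratio was -3.28 for Cftr, -2.02 for Slc26a3, -3.99 for Aqp8 and -3.75 for Car1, beside -3.14, -2.52, -4.54 and -4.13 as measured. For Slc12a2 the recomputed ratios were -1.23 at 24 h and -0.68 at 48 h, beside -1.32 and -0.54, so 24 h and 48 h lay closer. Cluster 0, where untreated Slc12a2 was highest, held 6.17% of the UMIs at 24 h and 25.4% at 48 h.

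Within the colonocyte-like cluster all 9 genes were lower by 2-fold or more at 24 h and 7 of 9 at 48 h, where 19.9% and 13.5% of the genes counted were that much lower. Slc26a3 was at 239.9 CPM in untreated, 34.94 CPM at 24 h and 63.41 CPM at 48 h (log2 ratios -2.78, 95% CI -2.93 to -2.63, and -1.92, 95% CI -2.07 to -1.77). Thinned cells with a Slc26a3 UMI made up 40.7%, 7.76% and 13.9% of the cluster, or 74, 9 and 40 cells. The number of UMIs in such a cell was 4.23, 3.67 and 3.90 on average, with the 24 h value from only 9 cells. Aqp8 was at 185.4, 14.01 and 11.63 CPM, with a UMI in 20.3%, 2.59% and 3.14% of thinned cells (37, 3 and 9 cells). Car1 was at 3633, 349.3 and 255.4 CPM, and here the number in a positive cell was lower as well, at 27.6, 6.53 and 4.35 UMIs. Car4 was at 24.93, 4.508 and 13.09 CPM, a log2 ratio at 48 h of -0.93 (95% CI -1.29 to -0.58). Slc12a2 at 48 h, 238.1 CPM against 294.8 CPM, was the other gene that did not reach 2-fold. Its untreated level was below the background of 301.3 CPM, so free RNA and expression of Slc12a2 were not told apart in this cluster. Yet Slc12a2 supplied 3228 of the 4570 secretory UMIs here without IFN-γ and 1637 of 1730 at 48 h. The secretory to absorptive change of this cluster thus leaned on Slc12a2. Cftr alone, at 122.5, 10.95 and 13.53 CPM, was lower by more than the absorptive sum of 6502, 1116 and 876.1 CPM. The nuclear transcripts Malat1 and Neat1, whose share is high in damaged cells, summed to 15691 CPM in this cluster without IFN-γ, 3508 CPM after 24 h and 5312 CPM after 48 h, and their part in these differences was not tested. The cluster also depended on integration. Without it, untreated and treated colonocyte-like cells fell into separate clusters, and the secretory to absorptive change was -0.15 at 24 h and 1.32 at 48 h in place of 0.998 and 2.16. There 7 of 9 genes at 24 h and 6 of 9 at 48 h were lower by 2-fold or more. The share of all genes that much lower was not counted for those cells, so these 2 counts have no measure beside them. The log2 ratios of Slc26a3 were then -0.64 and -0.63, in place of -2.78 and -1.92, and those of Car4 -0.021 and 0.62. The cells compared differed as well, with 481 untreated cells in place of 182, beside 117 and 422 treated cells. Of those 481, 478 formed a cluster without Krt20 among its leading genes, whereas Krt20 led the cluster of most treated cells.

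Expression within the untreated colonocyte-like cluster was uneven. For each gene, the 19 of 182 cells with most of its UMIs after thinning held 88.7% of the Aqp8 and 61.3% of the Slc26a3 UMIs, but 25.7% of the Car2 and 35% of the Aqp4 UMIs. Detection was nested. Of the 37 thinned cells with an Aqp8 UMI, 35 also had a Slc26a3 UMI, as did all 19 cells with Slc9a3 and all 10 with Car4, whereas 47.3% of the 74 cells with Slc26a3 had Aqp8. Cells with Krt20 were also taken without clusters, by at least 1 Krt20 UMI after thinning, a choice made after these data had been seen. Such cells numbered 55, 56 and 109, or 5.20%, 6.11% and 3.72% of the libraries, of which 40, 29 and 70 were in the colonocyte-like cluster. Whether IFN-γ changed which cells carry Krt20 was not tested. Krt20, which chose them, was at 514.3, 480.6 and 604.1 CPM in them. In untreated cells they held 93% of all Aqp8 and 98.2% of all Car4 UMIs, 48.6% of the Slc26a3 and 52.7% of the Slc9a3 UMIs, but 1.51% of the Cftr and 0.579% of the Slc12a2 UMIs. In these Krt20-positive cells Aqp8 was at 1050, 50.93 and 42.92 CPM, Slc26a3 at 819.9, 122.9 and 217.3 CPM, Car1 at 9661, 896.3 and 588.2 CPM, and Slc9a3 at 112.6, 11.71 and 15.37 CPM. The absorptive genes were thus lower in cells chosen for Krt20 too. Slc12a2 was not lower here, at 84.72 CPM (95% CI 71.9 to 99.2), 86.93 CPM (95% CI 77.3 to 97.4) and 153.7 CPM (95% CI 136.5 to 172.4). Its background was 301.3, 95.41 and 108.5 CPM, so only the 48 h value lay above it, and free RNA was not told apart. Cftr, at 52.47, 27.51 and 24.91 CPM, was lower by less than in all cells.

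The 9 genes were then set among 58 other genes of ion and water transport, of which 52 could be measured at 24 h and 51 at 48 h. At 24 h 21 of 52 were lower by 2-fold or more, beside 26.0% of all genes, and 0 higher, with a median log2 ratio of -0.87, and at 48 h 14 of 51 were lower, beside 16.6% of all genes, and 4 higher, with a median of -0.54. Over all genes 3.46% and 5.26% were higher by 2-fold or more. The listed genes thus lay below the median of all genes (-0.46 and -0.18) but well above the median of the 9.

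The 5 lowest listed genes with a mean of 10 CPM or more were Guca2a, Slc26a2, Car8, Car9 and Guca2b. Guca2a and Guca2b encode guanylin and uroguanylin, the luminal peptides that open CFTR through the receptor guanylate cyclase C, the product of Gucy2c. Guca2a was at 124.6 CPM in untreated cells, 18.66 CPM at 24 h and 28.81 CPM at 48 h, and Guca2b at 48.81, 18.19 and 25.93 CPM. Gucy2c was at 90.08, 40.98 and 46.95 CPM, log2 ratios of -1.14 and -0.94. Slc26a2, a sulfate transporter related to Slc26a3, was at 115.6, 19.44 and 24.49 CPM. Car8, which lacks catalytic activity, was at 18.59, 5.557 and 6.181 CPM, and Car9, a hypoxia-responsive enzyme of the cell surface, at 65.04, 29.31 and 14.82 CPM. Without IFN-γ, Car8, Guca2a and Guca2b were highest in goblet-like cells, Car8 at 105.7 CPM. In colonocyte-like cells Car8 was not lower, at 2.192, 2.496 and 2.618 CPM, whereas Guca2a, Slc26a2, Car9 and Guca2b were lower there at both times.

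The 4 that were higher at 48 h were Slc4a4, Stk39, Slc26a6 and Slc12a4, the last a potassium chloride cotransporter named here after its value was seen. Of the listed genes with a mean of 10 CPM or more, 3 were higher at both times, among them Slc4a4 and Stk39. Slc4a4, the basolateral sodium bicarbonate cotransporter NBCe1, was at 39.05 CPM in untreated cells, 50.38 CPM at 24 h and 108.8 CPM at 48 h (log2 ratio 1.48 at 48 h). Stk39 encodes SPAK, a kinase that activates NKCC1, and was at 42.07, 52.86 and 86.72 CPM. In the colonocyte-like cluster the levels were 29.68, 59.01 and 137.4 CPM for Slc4a4 and 25.29, 30.91 and 59.34 CPM for Stk39, so these genes were higher in the cluster in which Slc26a3 was lower. The class listed as basolateral entry had the highest median, -0.49 at 24 h and 0.23 at 48 h over its 5 genes other than Slc12a2. It also holds the potassium chloride cotransporters Slc12a4 and Slc12a7, which usually carry chloride out of the cell. Both medians were the values of Slc12a7, so they do not describe entry alone.

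Of the other partners named, Kcnq1 and Kcne3 encode the basolateral potassium channel that sustains chloride secretion. Kcnq1 was at 168.6, 72.71 and 165.3 CPM (log2 ratios -1.21 and -0.03) and Kcne3 at 40.42, 29.71 and 19.81 CPM (-0.44 and -1.03). Slc26a6, another anion exchanger, was below 2 CPM in each library, from 30, 68 and 74 UMIs (log2 ratios 0.67 and 1.38). Of the epithelial sodium channel, Scnn1a was at 14.54, 10.14 and 12.83 CPM, whereas Scnn1b had 7, 5 and 5 UMIs and Scnn1g 0, 0 and 2, so a difference in those subunits was not detectable at this depth.

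**Figure D5:**
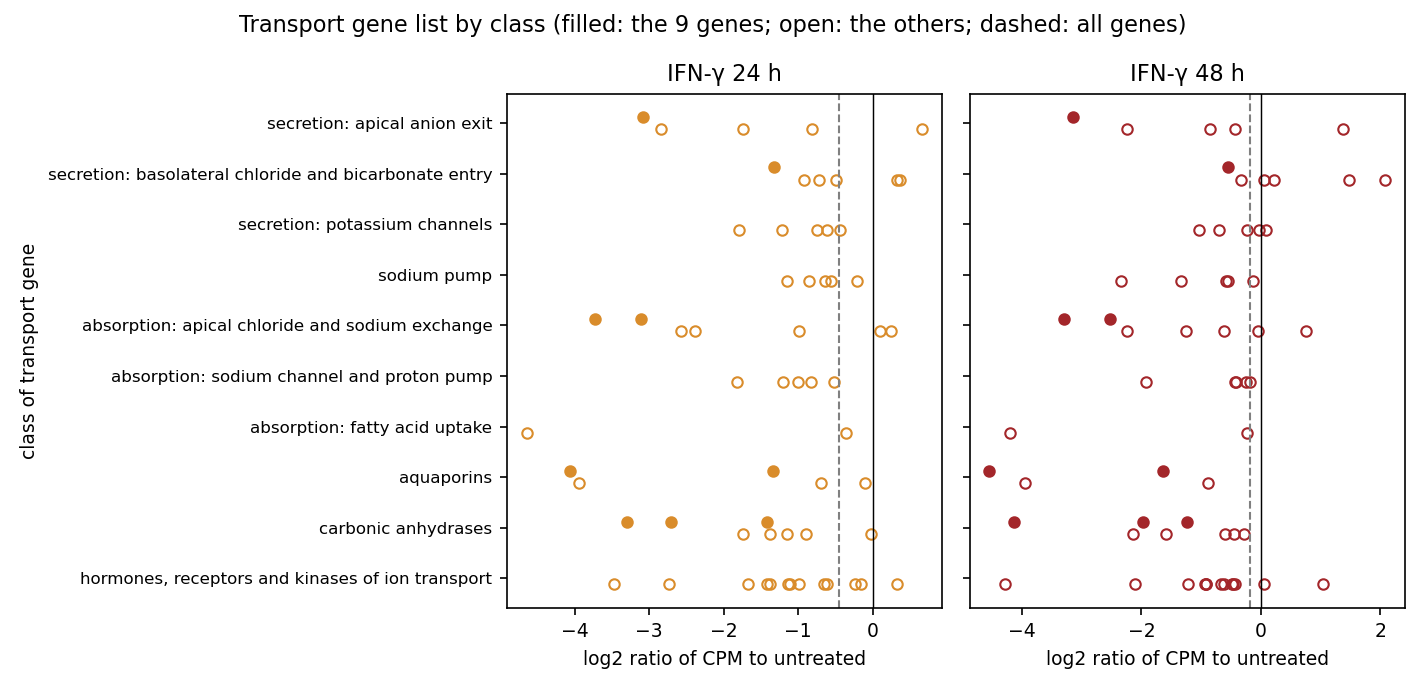
Log2 ratio to the untreated library of every measured gene of the transport list, by class, at 24 h (left) and 48 h (right). Filled points are the 9 genes, open points the others, and the dashed line is the median over all genes (-0.46 and -0.18). In each of the 5 classes with filled points, the lowest gene at both times is filled. Of the 9 open points to the right of 0 at 48 h, 4 are in the class listed as basolateral entry. Among these are the potassium chloride cotransporters Slc12a4 and Slc12a7.

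Across the 20 sums of a cluster in a library with at least 20 cells, the pattern of Slc9a3 was most like that of its partner Slc26a3 (Pearson r = 0.938 of log2(CPM + 1)), followed by Maoa and Mal2. Genes were compared only with a mean of at least 20 CPM, which leaves out Slc9a3 as a match. Among them those most like Slc26a3 were Maoa, Itih5 and Cds1, with r of 0.906, 0.895 and 0.893. Cftr was most like Thrb, Pex3 and Gucy2c, the last with r = 0.93. Slc12a2 was most like Clca3b, Pdzd8 and Arhgef26 (r of 0.929 to 0.899). Aqp8 was most like Ccng1, Lgals3 and Ckmt1 (r of 0.871 to 0.854), Car4 like Plin2, Lypd8 and Prdx5 (0.817 to 0.786), and Aqp4 like Lta4h, Homer2 and Acsm3 (0.936 to 0.89). Rflnb was shared by Car1, with Gsta1 and Tstd1, and Car2, with Gsta4 and Acaa2, and Car1 and Car2 had r = 0.895 with each other. Cftr and Slc12a2 had r = 0.624. The 20 sums share 3 libraries and their depth, so these values describe likeness among 7058 genes and carry no test.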

How the data were processed

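Mouse colon organoids were measured in 3 libraries by sc-RNAseq with Single Cell 3' v3 chemistry, after dead cells had been removed by FACS with DAPI. The authors mapped reads to mm10 with Cell Ranger 6.0.1, per the submitters' processing notes, and deposited integer UMI counts per gene and barcode without normalization. The annotation release is not given in the sources used here, and the matrices still held low-count barcodes, down to 851 UMIs. Cells were kept with at least 5000 UMIs, 400 genes and at most 15% mitochondrial UMIs, a filter given in the study's methods. For each gene the UMIs of all cells in a library or cluster were added and scaled to CPM, without pseudocount. Ratios to untreated have exact conditional binomial intervals, levels exact Poisson and shares Clopper-Pearson intervals. Changes of a quotient have approximate intervals from the Poisson variances of the counts. Only the ratio and quotient intervals were checked, on simulated Poisson counts, which lack any clumping of UMIs within cells. Molecules are counted once, so intervals cover counting error only. With 1 library per condition there are no p-values, and a gene with at least 10 counts over both libraries counts as lower or higher past 2-fold. The median total of UMIs per cell differed between libraries (33550, 68784 and 10772), so shares of cells were compared after thinning to 5000 UMIs.

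Cells were integrated by CCA over 30 dimensions in Seurat 5.3.0 with 2000 variable genes, transport genes left out, and clusters were drawn from 20 principal components with the resolution set to 0.5. A cluster was named with at least 3 markers of a list above the other cells and 1 among its 10 leading genes. Doublets were kept, since no caller was run. TMM factors came from edgeR 4.0.16 in R 4.3.3, and other values from Python 3.11.15 with scipy 1.17.1. The members, gene lists, markers and alternatives were chosen with earlier results of these data known. Besides the 9 members, the text names the 5 lowest and up to 5 highest listed genes of at least 10 CPM with 1 direction at both times, Scnn1a, Scnn1b, Scnn1g, Kcnq1, Kcne3, Slc26a6, Gucy2c, Guca2a and Guca2b, and for each member the 3 genes most alike among those of at least 20 CPM. Some genes that this rule or the marker lists include are not reported here. Gene positions are from GENCODE, promoters from RefSeq.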

Additional observations from a re-analysis of the deposited data

How the results depend on the processing

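No paired analysis was possible because each condition has 1 library. Each alternative kept all 9 genes lower in all cells. The number lower by 2-fold or more was 6 at 24 h with TMM or median-of-ratios factors and 9 otherwise, and 7 or 8 at 48 h. Over all genes the share at 24 h was 16.7% with TMM factors, 16.4% with median-of-ratios factors and 26.0% as measured. At 48 h it was 13.4% with either set of factors and 16.6% as measured. This share was not counted for the cell filters and weightings.

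The log2 change of the secretory to absorptive quotient, 0.39 at 24 h and 1.64 at 48 h, stayed above 0 for each cell filter and weighting. It was 0.44 and 1.55 with a minimum of 2000 UMIs, 1.51 at 48 h with 10000, 0.54 and 1.73 with at most 10% mitochondrial UMIs, 0.48 and 1.73 without the 5% of cells with most UMIs, 0.31 and 1.47 as a mean over cells, 0.29 and 1.44 after thinning, 0.42 and 1.69 with free RNA subtracted, and 0.52 and 1.45 with untreated cluster shares. The genes summed mattered more. It was 1.03 and 2.20 without Car2, 0.11 and 1.08 over Slc26a3, Slc9a3, Aqp8 and Aqp4, 0.61 and 0.92 as a mean of log2 ratios and, in settings added after seeing the data, -0.057 and 1.16 without Car1 and -1.16 and -0.71 without Slc12a2.

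In colonocyte-like cells, where Slc12a2 supplied most of the secretory UMIs, it was 0.998 and 2.16. At 48 h it was 2.35 at a resolution of 0.3 and 2.39 with 30 principal components. Without integration it was -0.15 and 1.32, where 1 such cluster held 478 untreated cells with 2 and 1 treated cells and the other 3 untreated cells with 115 and 421 treated cells, and Car4 turned to 0.62 at 48 h. In Krt20-positive cells, added after seeing the data, it was 2.74 and 3.79, and the log2 ratio of Slc12a2 turned to 0.037 and 0.86. The untreated level of Slc12a2 in those cells was below background. The 24 h and 48 h ratios share the untreated library. Library preparation and treatment cannot be told apart, and Slc9a3, Car4 and Aqp8 rest on at most 177 UMIs in each treated library.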
